A study of Mus musculus with 14 samples.

Results

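Trained, vehicle-injected THY-Tau22 mice (TAU VEH, 2 libraries) were compared with wild-type mice that stayed in their home cage (WT VEH_HC, 3 libraries), which took 5 of the 14 RNA-seq libraries of the series. The libraries were chosen by their labels, and all genes of the raw count table entered the comparison. THY-Tau22 mice, bred on a C57BL6/J background, are a line that expresses a mutated form of human tau, the microtubule-binding protein that aggregates in tauopathies, under a Thy1 promoter that is active in neurons. TAU VEH mice were heterozygous males of 8 months that received weekly injections of the carbon nanosphere carrier (CSP) alone and then learned to find the hidden platform of a Morris water maze over consecutive days, with dissection of the dorsal hippocampus an hour after the last trial. WT VEH_HC mice were wild-type males of the same age and background that received saline and no training. Genotype, training and injected vehicle thus changed together, and cannot be told apart in this comparison. Another group, trained wild-type mice given saline (WT VEH, 2 libraries), shares the vehicle of the home-cage group and the training of TAU VEH, and is given side by side for the genes described. A separate cohort of untrained mice, TAU basal (2 libraries) against WT basal (3 libraries), compared the genotypes without training. WT VEH and basal mice were likewise males of 8 months on the C57BL6/J background, and THY-Tau22 mice were heterozygous. Whether the basal mice were injected is not clear from the study. The study's methods speak of the RNA-seq samples of the learning cohort as mice, and n is the number of libraries.

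Neuronal firing lets calcium into the cell, which activates kinases of the ERK and CaMK pathways and, through them, the transcription factors CREB and SRF at the promoters of immediate early genes. CREB recruits the histone acetyltransferases CBP and p300, the proteins that the study set out to activate. The first wave encodes transcription factors such as Fos, Egr2 and Npas4, synaptic effectors such as Arc and Homer1, and phosphatases such as Dusp5 and Dusp6 that switch ERK off again, and hippocampal neurons are known to use this wave in forming spatial memories.

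The 5 libraries held 24693713 to 52180305 counts assigned to genes, and the shallowest was TAU VEH replicate 2. Of 16820 genes with enough counts to test, 2724 (16.2%) were called higher and 3058 (18.2%) lower in TAU VEH, together 34.4%, by the quasi-likelihood test of edgeR; a call needed a Benjamini-Hochberg adjusted p under 0.05 and a log2 fold change beyond 0.2 in size. Most changes were small: the median absolute log2 fold change of the called genes was 0.41, and 84 genes rose and 98 fell by more than 1. Counts followed the base composition of the genes differently from library to library. The correlation across genes of GC content with a gene's level relative to the other libraries (Spearman's rho, a description of each library) was 0.458 to 0.496 in the 3 WT VEH_HC libraries and -0.672 and -0.465 in the TAU VEH libraries. Genes called higher had a median GC content of 43.5%, those called lower 56.2%, and all genes tested 50.0%. Counts of called genes are therefore given without and with a correction of every library for GC content and gene length, under which 870 genes (5.17%) were called higher and 924 (5.49%) lower. In both fits together 646 genes were called higher and 760 lower. How much of the shift with GC content was technical was not tested.

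**Figure D1:**
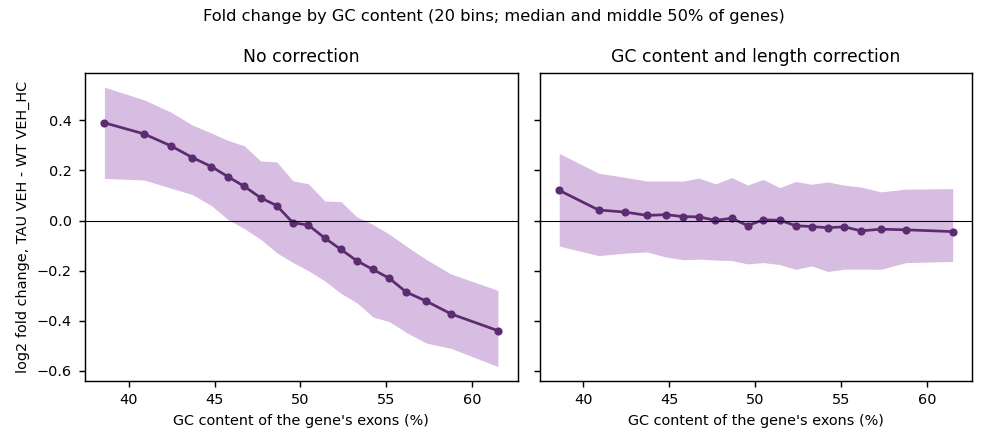
Median log2 fold change of TAU VEH against WT VEH_HC (vertical axis; shaded band, from the lower to the upper quartile) in 20 bins of genes by the GC content of their exons (horizontal axis, percent), without and with the correction. The median runs from 0.39 in the most AT-rich bin to -0.44 in the most GC-rich bin without the correction, and from 0.12 to -0.04 with it.

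Of 66 activity-induced genes tested, 28 were called higher in TAU VEH than in WT VEH_HC, led by Egr2 and Fos. Promoters of 4 members that rose are shown first, as picked examples in which motifs for CREB or SRF can be read. Whether these motifs carried a signal to the genes was not tested. Each sequence is RefSeq's stretch upstream of a start site, located by exact match in NCBIM37 (mm9) and cut at the first annotated exon base. The capitals mark the half-site of the cAMP response element to which CREB binds, TGACG or CGTCA according to strand, and the CArG box to which SRF binds. The Fos stretch lay at chr12:86814590-86814839 on the plus strand, directly before the gene, and held 2 half-sites. That of Egr2 lay at chr10:67000367-67000616 on the plus strand, in no exon and inside the annotated gene before an internal start, and held 2 half-sites and 1 CArG box. It was the window with the most motifs among 5 listed starts. The Dusp5 stretch lay at chr19:53603385-53603598 on the plus strand and held 2 adjacent CArG boxes and 1 half-site. The Npas4 stretch lay at chr19:4989972-4990221 on the minus strand and held 2 half-sites.
Fos: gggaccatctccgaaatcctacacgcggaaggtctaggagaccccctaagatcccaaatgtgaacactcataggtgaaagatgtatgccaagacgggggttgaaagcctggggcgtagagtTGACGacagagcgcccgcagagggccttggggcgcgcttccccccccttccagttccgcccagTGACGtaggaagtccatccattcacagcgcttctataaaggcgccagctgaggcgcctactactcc
Egr2: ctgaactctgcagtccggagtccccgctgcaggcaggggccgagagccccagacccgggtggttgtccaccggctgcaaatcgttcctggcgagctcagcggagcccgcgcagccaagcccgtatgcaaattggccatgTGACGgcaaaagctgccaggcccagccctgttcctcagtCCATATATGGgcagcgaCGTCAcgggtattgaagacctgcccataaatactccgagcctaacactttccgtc
Dusp5: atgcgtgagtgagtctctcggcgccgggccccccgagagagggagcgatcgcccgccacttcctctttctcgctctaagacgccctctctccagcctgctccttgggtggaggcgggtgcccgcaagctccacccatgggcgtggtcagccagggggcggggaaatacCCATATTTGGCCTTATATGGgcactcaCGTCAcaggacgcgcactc
Npas4: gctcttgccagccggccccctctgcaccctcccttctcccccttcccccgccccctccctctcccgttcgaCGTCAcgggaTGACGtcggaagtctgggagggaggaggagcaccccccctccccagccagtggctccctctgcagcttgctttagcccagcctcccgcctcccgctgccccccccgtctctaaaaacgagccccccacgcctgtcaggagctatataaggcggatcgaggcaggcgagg

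Of the 28 activity genes called higher, 23 had a promoter in the RefSeq table, and 16 of these (69.6%) held the half-site in the 250 bases before a listed start, on either strand. The half-site was found in 13 of 28 (46.4%) activity genes that were not called higher and had a promoter, in 28.6% of 11216 tested genes and in 19.8% of all 27025 promoters. The full palindromic element, which contains the half-site on both strands, stood in 6 of the 23 (Arl4d, Dusp1, Errfi1, Maff, Pcsk1 and Scg2), in 1 of the 28 not called higher (Plk2) and in 2.94% of tested genes. A CArG box stood in 2 of the 23 (Dusp5 and Egr2), in 1 of the 28 not called higher (Srf) and in 1.44% of tested genes. Genes with several listed starts had more chances of a match, and a match does not show that a factor was bound there.

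Of 22 immediate early transcription factor genes tested, 10 were called higher and 2 lower, where 16.2% of all genes were higher and 18.2% lower. The median log2 fold change was 0.26 against -0.01 for all genes. With the GC correction 10 were higher and 0 lower, against 5.17% and 5.49% of all genes, and the median of the list was 0.37. Without TAU VEH replicate 1, 6 were higher. Egr2, a zinc-finger factor, rose most. Its levels, in CPM (counts scaled to a common library size with TMM factors), were 0.788, 0.765 and 0.737 in WT VEH_HC replicates 1 to 3, and 6.06 and 4.68 in TAU VEH replicates 1 and 2. Both trained THY-Tau22 libraries lay far above every home-cage library, a 7.10-fold difference (log2 fold change 2.83 ± 0.20 SE, edgeR adjusted p = 8.26e-05). Fos (chromosome 12, 86814840 to 86818223, mm9), a subunit of the AP-1 factor, was at 5.11, 5.30 and 3.97 CPM in WT VEH_HC and at 16.0 and 14.4 CPM in TAU VEH. The groups did not overlap, and Fos was 3.19-fold higher (log2 fold change 1.67 ± 0.13, edgeR adjusted p = 0.000198). Egr2 and Fos kept their call in each of 15 alternative analyses, the GC correction and leaving out any library included.

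Npas4, a factor that neurons induce through calcium entry and that acts on inhibitory synapses, was at 5.95, 4.83 and 6.87 CPM in WT VEH_HC and at 9.65 and 10.6 CPM in TAU VEH. It was 1.72-fold higher (log2 fold change 0.78 ± 0.19, edgeR adjusted p = 0.00736), though not called without TAU VEH replicate 2. Atf3, a stress- and activity-induced factor, was low everywhere, at 0.661, 1.03 and 1.02 CPM in WT VEH_HC and 2.17 and 1.96 CPM in TAU VEH. Its log2 fold change was 1.19 ± 0.21 (edgeR adjusted p = 0.0015). The AP-1 subunit gene Junb moved from 47.7, 46.1 and 44.0 CPM to 62.1 and 66.2 CPM, and the nuclear receptor gene Nr4a1 from 62.1, 53.7 and 54.8 CPM to 78.4 and 73.7 CPM. Neither gene's groups overlapped, and the log2 fold changes were 0.48 ± 0.08 and 0.42 ± 0.10 (edgeR adjusted p = 0.00108 and 0.00701); with the GC correction they were 0.86 and 0.68. The Nr4a1 call was lost without TAU VEH replicate 1. Fosb, Egr4, Maff and Klf10 also rose, by log2 fold changes of 0.36 to 0.72, and each lost its call without at least 1 TAU VEH library.

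Not every immediate early gene rose. Egr1, long used as a marker of synaptic plasticity, was at 150, 130 and 161 CPM in WT VEH_HC and at 215 and 164 CPM in TAU VEH. TAU VEH replicate 2 lay just above the highest home-cage library, and the difference was not called (log2 fold change 0.37 ± 0.14, edgeR adjusted p = 0.0655). The nuclear receptor gene Nr4a2 was at 47.5, 47.5 and 43.7 CPM in WT VEH_HC and at 50.4 and 38.1 CPM in TAU VEH, so that the groups overlapped (log2 fold change -0.06 ± 0.13, edgeR adjusted p = 0.777). Jund, an AP-1 subunit gene, and Srf were called lower, by log2 fold changes of -0.59 and -0.34, and with the GC correction neither was called (-0.16 and 0.04).

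**Figure D2:**
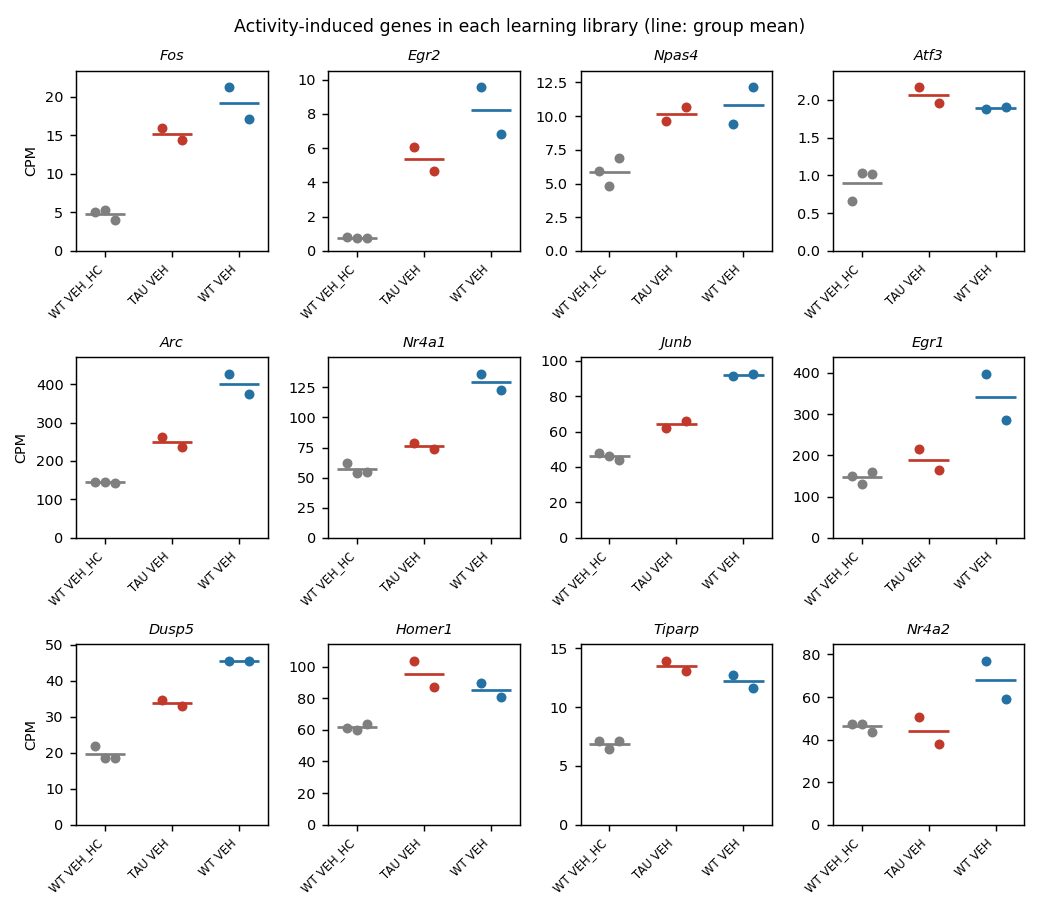
CPM (vertical axes, from 0) of 12 activity-induced genes in each learning library, with a line at each group mean. TAU VEH points lie above all WT VEH_HC points in every panel but that of Nr4a2, and for Egr1, Arc, Junb and Nr4a1 the WT VEH points lie higher still.

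Among 32 genes for activity-induced effectors, 13 were called higher and 1 lower (median log2 fold change 0.20), where 16.2% of all genes were higher and 18.2% lower. With the GC correction 10 were higher and 1 lower (median 0.25), against 5.17% and 5.49% of all genes. Without TAU VEH replicate 1, 7 were higher. Arc, which drives the removal of AMPA receptors from synapses, was at 144, 146 and 143 CPM in WT VEH_HC and at 263 and 236 CPM in TAU VEH. The home-cage libraries lay close together and both TAU VEH libraries stood well above them, 1.73-fold (log2 fold change 0.79 ± 0.09, edgeR adjusted p = 0.000225; 1.13 with the GC correction). Homer1, whose short form loosens the postsynaptic scaffold, was at 61.3, 60.2 and 63.5 CPM against 104 and 87.0 CPM, with no overlap (log2 fold change 0.63 ± 0.09, edgeR adjusted p = 0.000397). The table does not separate its isoforms. Tiparp, a poly-ADP-ribose polymerase gene, rose 1.96-fold, from 7.15, 6.42 and 7.13 CPM to 13.9 and 13.1 CPM (log2 fold change 0.97 ± 0.09, edgeR adjusted p = 0.000218), although reads cannot be told apart from those of the overlapping gene 4931440P22Rik. The growth factor gene Bdnf, at 34.8 to 39.8 CPM in WT VEH_HC and 41.1 and 45.2 CPM in TAU VEH, was not called (log2 fold change 0.24, edgeR adjusted p = 0.108). Vgf, a neuropeptide precursor gene, was the 1 member called lower (log2 fold change -0.36), and with the GC correction its log2 fold change was 0.10 and not called.

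Of 12 genes for feedback on ERK, 5 were called higher and 3 lower (median log2 fold change 0.07), and 5 and 2 with the GC correction. Of all genes 16.2% were higher and 18.2% lower, and 5.17% and 5.49% with the correction. The median of the list was -0.04 without TAU VEH replicate 1 and 0.17 without TAU VEH replicate 2. The 5 that rose were Dusp5, Errfi1, Spred1, Dusp6 and Dusp1, and without TAU VEH replicate 1, 3 were called. Dusp5, a phosphatase of nuclear ERK, was at 22.0, 18.5 and 18.5 CPM in WT VEH_HC and at 34.6 and 33.1 CPM in TAU VEH. It was 1.73-fold higher with no overlap (log2 fold change 0.79 ± 0.08, edgeR adjusted p = 0.000218). Errfi1, an inhibitor of the EGF receptor that glucocorticoids also induce, was at 27.8 to 32.0 CPM against 46.2 and 46.8 CPM (log2 fold change 0.67, edgeR adjusted p = 0.000225). Spred3, Spry1 and Spred2, inhibitors of the RAS to RAF step, fell by 0.44, 0.37 and 0.20 on the log2 scale, of which Spred3 alone was also called with the GC correction.

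Over the 3 activity lists, 28 of 66 genes tested (42.4%) were called higher against 16.2% of all genes, and 6 (9.09%) lower against 18.2%. With the GC correction 25 (37.9%) were higher against 5.17%, and 3 lower. Between 14 and 40 of the 66 were called higher in the alternative analyses, the fewest with a covariate for choroid plexus markers and the most under scaling by library size alone. Leaving out TAU VEH replicate 1 left 16 and leaving out replicate 2 left 21. The groups did not overlap in 35 genes that were higher in TAU VEH and in 9 that were lower, where 56.0% of all genes did not overlap in either direction.

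Many activity-induced genes were higher in trained wild-type mice too. WT VEH against WT VEH_HC, which shares the home-cage libraries with the comparison above, called 28 of the 66 activity genes higher and 0 lower, against 5.35% of all genes called higher and 8.40% in either direction. It called 14 of the 66 higher without WT VEH replicate 1 and 18 without WT VEH replicate 2. Fos was at 21.3 and 17.1 CPM in WT VEH, Arc at 427 and 375 CPM, and Egr1 at 398 and 285 CPM. Their log2 fold changes from the home cage were 2.00, 1.47 and 1.22 in WT VEH, beside 1.67, 0.79 and 0.37 in TAU VEH. TAU VEH was tested directly against WT VEH, where 14.4% of all genes were called (10.8% lower in TAU VEH, 2.97% in either direction with the GC correction). The balance of these calls, 608 higher and 1815 lower, turned to 2578 and 1020 under scaling by library size alone, which moved the median over all genes to 0.15. Of the 66 activity genes 21 were called lower in TAU VEH and 1, Ptgs2, higher, and under scaling by library size alone 11 were lower and 8 higher. Arc was lower by a log2 fold change of -0.68 ± 0.10 (edgeR adjusted p = 0.00167), Egr1 by -0.84 and Nr4a1 by -0.77, and all 3 were called lower under that scaling too (-0.54, -0.70 and -0.62). For Fos (-0.33, adjusted p = 0.149), Npas4 (-0.09, adjusted p = 0.825) and Atf3 (0.13, adjusted p = 0.77) the test found no difference, which does not show that the 2 trained groups were alike. With the GC correction 4 activity genes were called lower, namely Egr1, Nr4a1, Nr4a2 and Dusp6, and Arc was not (-0.39, edgeR adjusted p = 0.079). The WT VEH libraries also carried more choroid plexus RNA, with a mean log2 CPM over 14 choroid plexus markers of 5.15 and 4.54, against 2.40 and 2.74 in TAU VEH. With that score as a covariate edgeR called 0 genes between the trained groups (2312 at an unadjusted p under 0.05) and 0 between WT VEH and WT VEH_HC (810). The score was 0.998 to 2.27 in WT VEH_HC and so did not overlap between any 2 of these 3 groups, and what goes with the score cannot be told apart from what goes with the group. With the covariate the log2 fold change of Arc was -0.73 between the trained groups and 1.54 from the home cage to WT VEH, and that of Egr1 was -0.35 and 0.50. The count of 21 activity genes below their WT VEH level became 10, 8, 7 and 13 without TAU VEH replicate 1, TAU VEH replicate 2, WT VEH replicate 1 and WT VEH replicate 2.

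**Figure D3:**
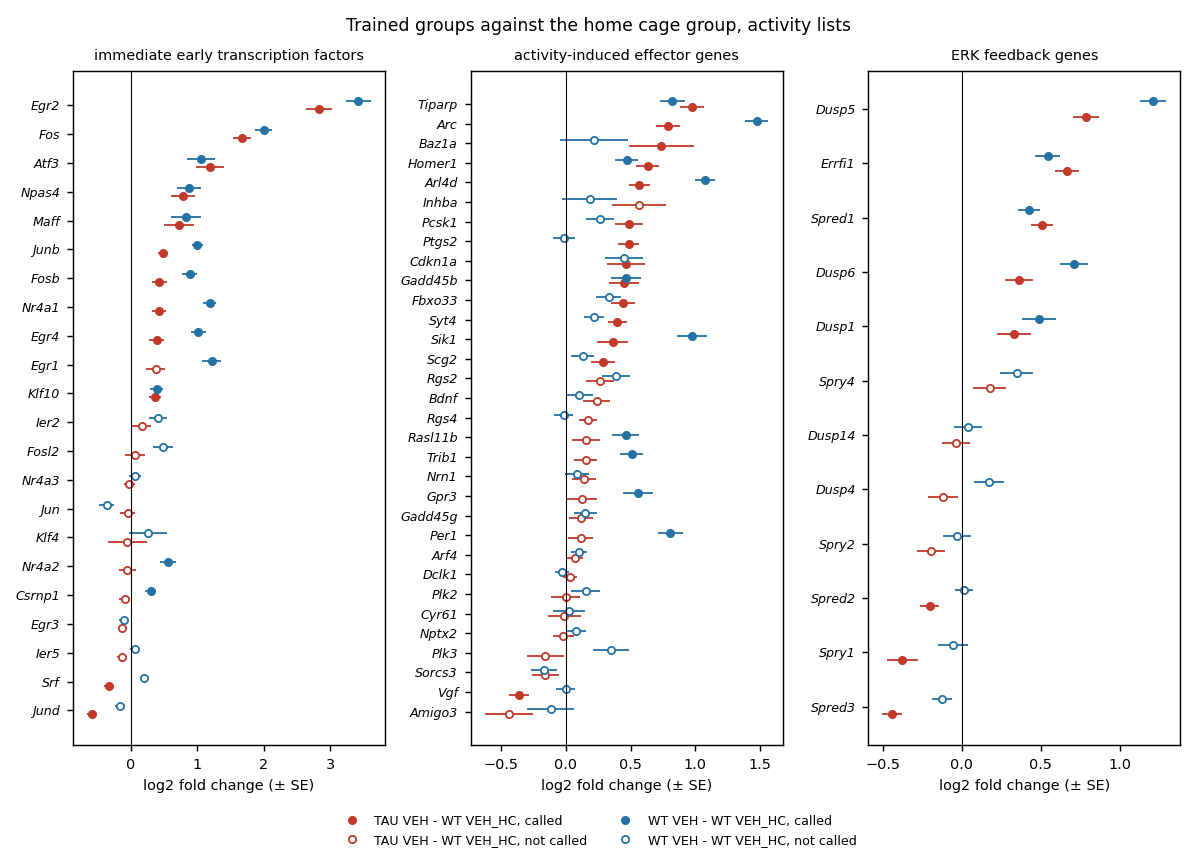
Log2 fold change (± SE) from WT VEH_HC (horizontal axis) for each tested member of the 3 activity lists in TAU VEH (red) and WT VEH (blue); filled points were called and open points were not. Egr2 and Fos stand farthest right in both groups, while Arc, Junb, Nr4a1 and Egr1 lie farther right in WT VEH than in TAU VEH.

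The largest increases outside the activity lists included genes that respond to glucocorticoids, the adrenal steroid hormones of the stress response. Plin4, which coats lipid droplets, was at 1.86, 3.18 and 2.15 CPM in WT VEH_HC and at 7.27 and 12.2 CPM in TAU VEH. It was 3.96-fold higher with no overlap (log2 fold change 1.98 ± 0.25, edgeR adjusted p = 0.000285), though it overlaps the gene Hdgfrp2, whose reads cannot be told apart in this unstranded library. Sgk1, a kinase gene induced by steroid hormones, was at 56.8, 50.9 and 49.8 CPM against 118 and 127 CPM, 2.34-fold higher (log2 fold change 1.22 ± 0.18, edgeR adjusted p = 0.000564). Of 17 glucocorticoid-responsive genes 10 were called higher and 0 lower, with a median log2 fold change of 0.46, and 12 and 0 with the GC correction (median 0.59); of all genes 16.2% and 5.17% were higher. In WT VEH the median of the list was 0.45, and Sgk1 stood at 90.7 and 119 CPM. Fkbp5 (0.18), another classical target outside the naming rule, was not called in either fit.

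Others among the 12 largest increases were Plekhf1 (log2 fold change 1.68), Hif3a (1.24), Fam46a (1.20), Lysmd3 (1.20), Acer2, an alkaline ceramidase gene (1.16), and the coagulation factor gene F5 (1.12). Plekhf1, a gene for an endosomal adaptor, was at 2.52, 1.75 and 2.38 CPM in WT VEH_HC and at 6.61 and 7.66 CPM in TAU VEH, with WT VEH at 5.61 and 6.65 CPM. F5 was at 26.6 and 24.0 CPM in WT VEH, the group with the most choroid plexus RNA, against 4.88 and 8.08 CPM in TAU VEH. Hp, which encodes the haemoglobin-binding acute phase protein haptoglobin, had the largest increase among genes that averaged 100 or more normalized counts and whose groups did not overlap (log2 fold change 4.20 ± 0.91, edgeR adjusted p = 0.00417), and it rested on 1 library. It was at 0.229, 0.242 and 0.434 CPM in WT VEH_HC, 0.494 CPM in TAU VEH replicate 1 and 11.2 CPM in TAU VEH replicate 2, and without that library the log2 fold change was 0.70 (edgeR adjusted p = 0.311). The calls of the metalloreductase gene Steap4 and the chemokine gene Cxcl10 (1.40 CPM, against 0.533 CPM in the other TAU VEH library) were lost without that library too.

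The level of Thy1, the gene whose promoter drives the transgene, was 2.12-fold higher. Thy1 (chromosome 9, 43851467 to 43856662, mm9) was at 913, 899 and 884 CPM in WT VEH_HC and at 1805 and 1998 CPM in TAU VEH (log2 fold change 1.08 ± 0.06, edgeR adjusted p = 3.24e-05), and at 786 and 855 CPM in WT VEH. In untrained mice of the separate cohort its log2 fold change was 1.33. Reads of the mouse gene and of any Thy1 sequence in the transgene cannot be told apart. Mouse Mapt, the tau gene, was not called (log2 fold change -0.17, edgeR adjusted p = 0.0656). Mvd, an enzyme gene of the mevalonate pathway to cholesterol, was at 22.7, 22.1 and 19.4 CPM in WT VEH_HC and at 9.69 and 10.2 CPM in TAU VEH. It was 2.16-fold lower with no overlap (log2 fold change -1.11 ± 0.09, edgeR adjusted p = 0.000198), while WT VEH lay at 22.8 and 23.0 CPM, and its log2 fold change in untrained mice was -1.28. Cyp46a1, the brain's cholesterol hydroxylase gene, fell by 0.58 (0.28 with the GC correction), and of the other genes the study names, Kl (0.11), Nts (-0.32), Homer3 (0.04) and Grik4 (-0.32) were not called, although Homer3 was with the correction (0.34). The basal comparison called 4 of 16324 genes (0.0245%; 803 at an unadjusted p under 0.05, and 40 by DESeq2), and Thy1 and Mvd were the 2 that moved the same way in TAU VEH. Arc and Nr4a1, the other 2, were lower in TAU basal (-1.74 and -1.15) and higher in TAU VEH than in WT VEH_HC. Each of the 4 calls depended on single libraries: without WT basal replicate 2 all 4 were lost (edgeR adjusted p = 0.0831 for Thy1 and 0.106 for Mvd), and without WT basal replicate 3 that of Arc alone was kept. The log2 fold changes lay between 1.17 and 1.498 for Thy1 and between -1.47 and -1.09 for Mvd without 1 library. Those of Arc lay between -1.93 and -1.55, and those of Nr4a1 between -1.15 and -1.13.

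Over all genes, 68.2% of the genes called higher in TAU VEH had a positive log2 fold change in the basal comparison, where 48.4% of all genes did, and 66.6% of those called lower had a negative one, where 51.6% of all genes did. The 2 comparisons share no library. With the GC correction in both, the shares were 44.1% positive against 43.5% of all genes, and 63.7% negative against 56.5%. Of the 66 activity genes, by contrast, 48 had a negative log2 fold change in the basal comparison.

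Gfap, C4b and other glial and inflammatory genes were higher in TAU VEH than in either wild-type group of the learning cohort. Gfap, the intermediate filament of reactive astrocytes, was at 465, 386 and 429 CPM in WT VEH_HC and at 654 and 764 CPM in TAU VEH, with WT VEH at 451 and 423 CPM. The TAU VEH libraries overlapped neither wild-type group (log2 fold change 0.73 ± 0.09, edgeR adjusted p = 0.000247). The complement gene C4b rose from 89.9, 76.6 and 80.2 CPM to 112 and 147 CPM (log2 fold change 0.65 ± 0.11, edgeR adjusted p = 0.000893). Of the 8 inflammatory genes the study names, a list chosen on these samples, 5 were called higher and 0 lower (median 0.91), and 5 and 0 with the GC correction, where 16.2% and 5.17% of all genes were higher. The median of the list in WT VEH was -0.03. Ccl6 was also called higher in WT VEH (0.80). Irf8, Cd74 and Ccl4 were not called (0.29, 0.35 and 1.44 on the log2 scale).

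Some microglial genes were also called higher. Of 24 genes of disease-associated microglia, the state these phagocytes take around protein aggregates, 12 were called higher and 1 lower, and 11 and 0 with the GC correction, against 16.2% and 5.17% of all genes higher. Clec7a, a receptor gene of that state, was at 0.280, 0.0806 and 0.0867 CPM in WT VEH_HC and at 1.66 and 1.28 CPM in TAU VEH (log2 fold change 3.36 ± 0.42, edgeR adjusted p = 0.000254). Itgax, an integrin gene, was at 0.661, 0.463 and 0.390 CPM against 1.92 and 1.55 CPM (log2 fold change 1.80 ± 0.29, edgeR adjusted p = 0.000831). Both genes were higher in both TAU VEH libraries with no overlap. Cst7 (1.70), Ccl6 (1.43), Cd52 (1.24) and Lyz2 (1.20) rose too, whereas Trem2 (0.23) and Apoe (0.11) were not called without the correction; Cd52, Trem2 and Apoe lie outside the naming rule. Without TAU VEH replicate 2 the list had 5 members called higher, as it had with the choroid plexus score as covariate. Of 16 genes of homeostatic microglia 6 were called higher, but 2 with the GC correction and 0 without TAU VEH replicate 2. Complement genes (5 of 16 higher, and 5 with the correction, C1qb at 0.61), reactive astrocyte genes (5 of 17, and 3 with the correction, Osmr at 0.89) and antigen presentation genes (2 of 14 higher and 2 lower, and 3 and 1 with the correction) were the other glial and immune lists, and without TAU VEH replicate 2 they gave 3, 2 and 0 higher. Without WT VEH_HC replicate 1 they gave 3, 5 and 0 higher, without WT VEH_HC replicate 2 they gave 5, 5 and 4, and without WT VEH_HC replicate 3 they gave 5, 3 and 1. More cells of a type and more RNA per cell cannot be told apart in bulk tissue.

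**Figure D4:**
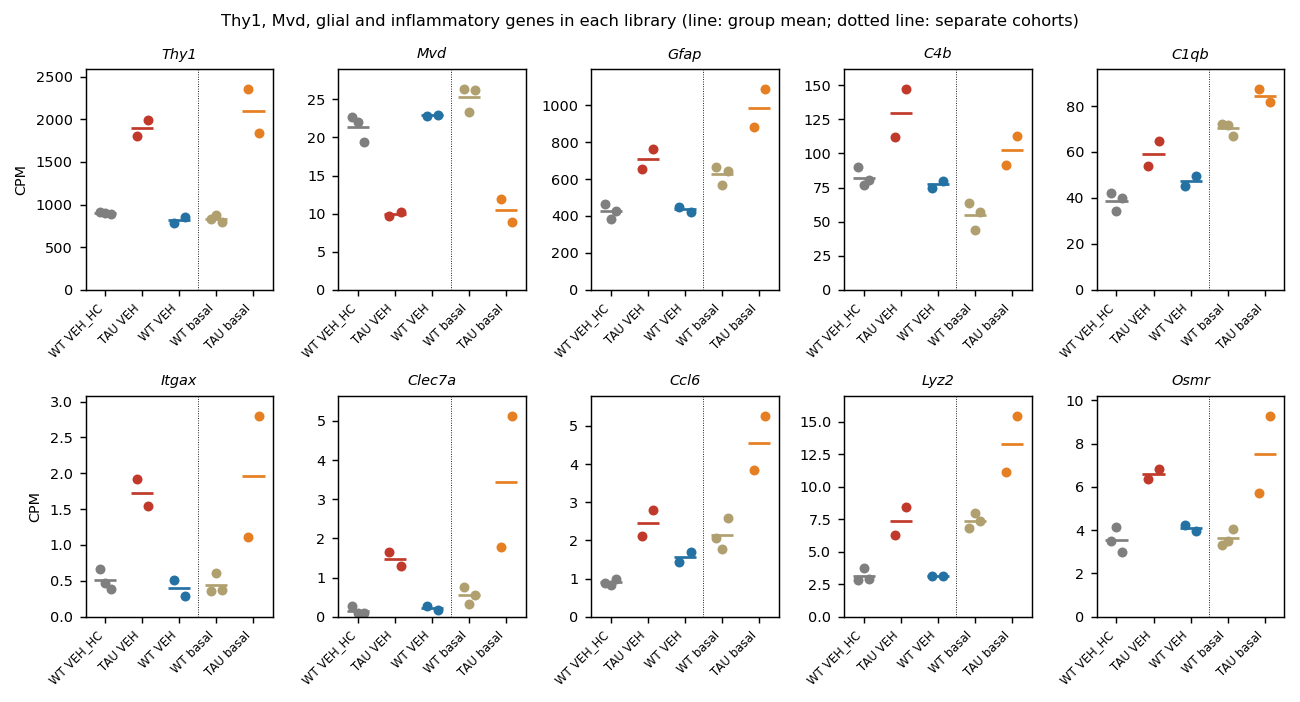
CPM (vertical axes, from 0) of Thy1, Mvd and 8 glial and inflammatory genes in each library, with a line at each group mean; the dotted line separates the learning cohort from the basal cohort, whose tables were scaled separately. TAU VEH points lie apart from both wild-type learning groups in every panel.

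Genes for the synaptic vesicle and its release machinery were mostly lower. Of 27 tested, 19 were called lower and 2 higher (median log2 fold change -0.41), and 12 and 0 with the GC correction (median -0.22), where 18.2% and 5.49% of all genes were lower. With the correction and the replicate block together 6 were lower. In the basal comparison of untrained mice 12 of the 27 had a positive log2 fold change and 15 a negative one (median -0.01). Slc17a7, the vesicular glutamate transporter of excitatory neurons, was at 3223, 3890 and 3962 CPM in WT VEH_HC and at 2350 and 2337 CPM in TAU VEH. Both TAU VEH libraries lay below the lowest home-cage library (log2 fold change -0.66 ± 0.09, edgeR adjusted p = 0.00037; -0.33 with the GC correction). Vamp2, the vesicle SNARE, fell by 0.61 and the calcium sensor gene Syt2 by 0.58 on the log2 scale. The 2 called higher were Sv2b (0.26) and Syt4 (0.40), and neither was called with the correction.

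Postsynaptic scaffold genes followed, with 13 of 21 called lower and 3 higher, and 6 and 2 with the GC correction. Over all genes 18.2% were lower and 16.2% higher, and 5.49% and 5.17% with the correction. In the basal comparison 14 of the 21 scaffold genes had a positive log2 fold change and 7 a negative one (median 0.05). Nlgn2, the adhesion protein gene of inhibitory synapses, was at 473, 495 and 535 CPM in WT VEH_HC and at 317 and 311 CPM in TAU VEH (log2 fold change -0.67 ± 0.06, edgeR adjusted p = 0.000218). The groups did not overlap, and the corrected log2 fold change was -0.26. Of 30 potassium channel genes 14 were called lower and 1 higher, but 3 and 0 with the correction, 9 were lower without TAU VEH replicate 2, and the median was -0.14. Under scaling by library size alone the median was 0.03, with 12 lower and 7 higher. In the basal comparison 21 of the 30 had a positive log2 fold change and 9 a negative one (median 0.09). Kcnh3, a channel subunit gene of forebrain neurons, was among the 3 called lower with the correction (-0.73, and -0.33 with it). Of 14 GABA-A receptor genes, whose median GC content was 42.8%, 9 were called higher without the correction and 1, Gabrb1 (0.60), with it; leaving out TAU VEH replicate 1 left 2, TAU VEH replicate 2 left 5, WT VEH_HC replicate 1 left 4 and WT VEH_HC replicate 2 left 6. For 23 glutamate receptor genes the counts were 7 higher and 6 lower, and 1 and 0 with the correction, the 1 being Gria2 (0.53); without TAU VEH replicate 1, 3 were higher, and without TAU VEH replicate 2, 4 were lower.

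Some markers of CA1 pyramidal cells, the output neurons of the hippocampus, were lower as well. Of 9 tested, 4 were called lower and 0 higher (median -0.49; 2 lower and a median of -0.26 with the GC correction, and 2 lower without TAU VEH replicate 1) where 18.2% and 5.49% of all genes were lower. The median was -0.17 without TAU VEH replicate 1 and also without WT VEH_HC replicate 1. In the basal comparison of untrained mice 7 of the 9 had a positive log2 fold change and 2 a negative one (median 0.22). The summed level of the markers was 501 to 536 CPM in TAU VEH against 643 to 900 CPM in WT VEH_HC. Wfs1, the marker of dorsal CA1, was at 327, 209 and 283 CPM in WT VEH_HC and at 159 and 149 CPM in TAU VEH, with a corrected log2 fold change of -0.54 that was not called (edgeR adjusted p = 0.0673). Markers of neocortex and subiculum, which border the hippocampus, also gave 6 of 13 lower and 1 higher (2 and 0 with the correction), and 3 lower without TAU VEH replicate 1. CA2 and CA3 markers gave 1 of 13 higher and 3 lower (2 and 1 with the correction, 2 and 0 under scaling by library size alone), dentate granule cell markers 2 and 2 of 11 (0 and 0), thalamus markers 1 and 2 of 11 (1 and 1), endothelial genes 1 and 3 of 16 (0 and 2) and blood genes 2 and 0 of 7 (2 and 0). Of all genes 16.2% were called higher and 18.2% lower, and 5.17% and 5.49% with the correction. The small counts of these lists moved with single libraries. CA2 and CA3 markers had 1 lower on leaving out TAU VEH replicate 1 or replicate 2, and dentate markers had 0 higher without TAU VEH replicate 1 and 0 lower without TAU VEH replicate 2. Endothelial genes had 5 lower without WT VEH_HC replicate 1, and blood genes had 4 higher without WT VEH_HC replicate 2. Oligodendrocyte genes gave 2 and 1 of 17 (0 and 0), 3 and 5 without WT VEH_HC replicate 2, and 5 and 1 without WT VEH_HC replicate 1. Their summed level was 4417 CPM in the lowest WT VEH_HC library and 8791 CPM in the highest, and the myelin gene Mbp was at 2267 CPM in WT VEH_HC replicate 2 against 4507 and 3916 CPM in replicates 1 and 3. Choroid plexus markers summed to 463 to 544 CPM in TAU VEH and 160 to 415 CPM in WT VEH_HC, and 5 of 14 were called higher (3 with the correction), 0 without TAU VEH replicate 2 and 12 without WT VEH_HC replicate 3. The part that neighbouring tissue played in these differences was not tested.

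A list of CREB factors, their coactivators and acetyltransferases, CBP and p300 included, had 13 genes tested. Of these 5 were called higher and 4 lower, and 3 and 1 with the GC correction. Over all genes 16.2% were higher and 18.2% lower, and 5.17% and 5.49% with the correction. Without TAU VEH replicate 1, 2 were lower. Creb1 itself was at 20.7, 23.4 and 23.1 CPM in WT VEH_HC and at 36.7 and 33.2 CPM in TAU VEH, with no overlap (log2 fold change 0.64 ± 0.09, edgeR adjusted p = 0.000326; 0.38 with the GC correction). Its coactivator gene Crtc1 fell by 0.62 (0.33 with the correction), and the acetyltransferase gene Kat2b rose by 0.64. Of 16 histone deacetylase genes 7 were called lower and 2 higher, and 1 and 0 with the correction, but 5 and 5 under scaling by library size alone. Circadian genes gave 5 of 18 higher and 4 lower, and 6 and 3 with the correction, 9 and 3 under scaling by library size alone, and 3 and 3 without TAU VEH replicate 1. Clock rose by 0.67 and its paralogue Npas2 fell by 0.62, and both kept their call under the correction (0.43 and -0.44).

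Of 15 cytosolic heat shock genes 8 were called higher and 1 lower, and 8 and 0 with the GC correction, where 16.2% of all genes were higher and 18.2% lower, and 5.17% and 5.49% with the correction. Of the 15, 4 were higher with the choroid plexus score as covariate. Hsp90aa1, the inducible HSP90 gene, was at 234, 218 and 273 CPM in WT VEH_HC and at 372 and 355 CPM in TAU VEH. The groups did not overlap (log2 fold change 0.59 ± 0.08, edgeR adjusted p = 0.00042). The inducible HSP70 gene Hspa1b rose by 0.42, or 0.73 with the correction, although its near-identical copy Hspa1a may share reads. Of 20 endoplasmic reticulum chaperone genes 10 were called higher and 2 lower, and 4 and 1 with the correction, 6 higher without TAU VEH replicate 1 and 1 higher with the choroid plexus score as covariate, with Hspa13 at 0.69 and Hspa5 at 0.44 among those that rose and the lectin chaperone gene Calr at -0.33 among those that fell.

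Of 12 mitochondrially encoded genes 7 were called lower (9 with the GC correction) and 0 higher, where 18.2% and 5.49% of all genes were lower. Under scaling by library size alone 3 were lower, and with the choroid plexus score as covariate 1 was. The complex I subunit gene mt-Nd1 was at 6507, 8138 and 8172 CPM in WT VEH_HC and at 5797 and 4484 CPM in TAU VEH (log2 fold change -0.57 ± 0.12, edgeR adjusted p = 0.00341). Without TAU VEH replicate 2, 0 of the 12 were called, and the cause was not tested. Nuclear genes for oxidative phosphorylation gave 2 of 72 higher and 5 lower (2 and 1 with the correction), but 27 and 2 under scaling by library size alone, 23 higher without WT VEH_HC replicate 3 and 10 lower without WT VEH_HC replicate 2. Cytosolic ribosomal protein genes, many of which have near-identical pseudogenes, gave 16 of 78 higher and 1 lower (14 and 0 with the correction). These shares of 20.5% and 17.9% higher stood beside 16.2% of all genes without the correction and 5.17% with it. Between 0 (without TAU VEH replicate 1) and 48 (without WT VEH_HC replicate 3) were higher on leaving out 1 library, with 1 without TAU VEH replicate 2, 6 without WT VEH_HC replicate 1 and 8 without WT VEH_HC replicate 2. Proteasome genes gave 12 of 37 higher and 2 lower, 3 and 1 with the correction, and 6 and 3 higher without TAU VEH replicates 1 and 2. Cholesterol synthesis genes gave 4 of 22 higher and 7 lower, and 2 and 2 with the correction, but 8 higher and 5 lower under scaling by library size alone, and 4 lower without TAU VEH replicate 1. Tau and its kinases gave 2 of 16 higher and 6 lower (0 and 4 with the correction), neuropeptide genes 1 and 3 of 21 (0 and 1), trophic factor genes 2 and 3 of 11 (1 and 1), adult neurogenesis genes 1 and 1 of 12 (1 and 0) and resting astrocyte genes 6 and 3 of 12 (2 and 1). Under scaling by library size alone neuropeptide genes gave 4 and 1, trophic factor genes 3 and 1, proteasome genes 26 and 0, and ribosomal protein genes 53 and 0. With the choroid plexus score as covariate proteasome genes and ribosomal protein genes each gave 0 higher and 1 lower. Neuropeptide genes gave 1 lower without TAU VEH replicate 1 and 6 lower without WT VEH_HC replicate 2, and trophic factor genes gave 0 higher on leaving out TAU VEH replicate 1 or replicate 2. Resting astrocyte genes gave 3 higher and 1 lower without TAU VEH replicate 1, and 2 and 3 without TAU VEH replicate 2.

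**Figure D5:**
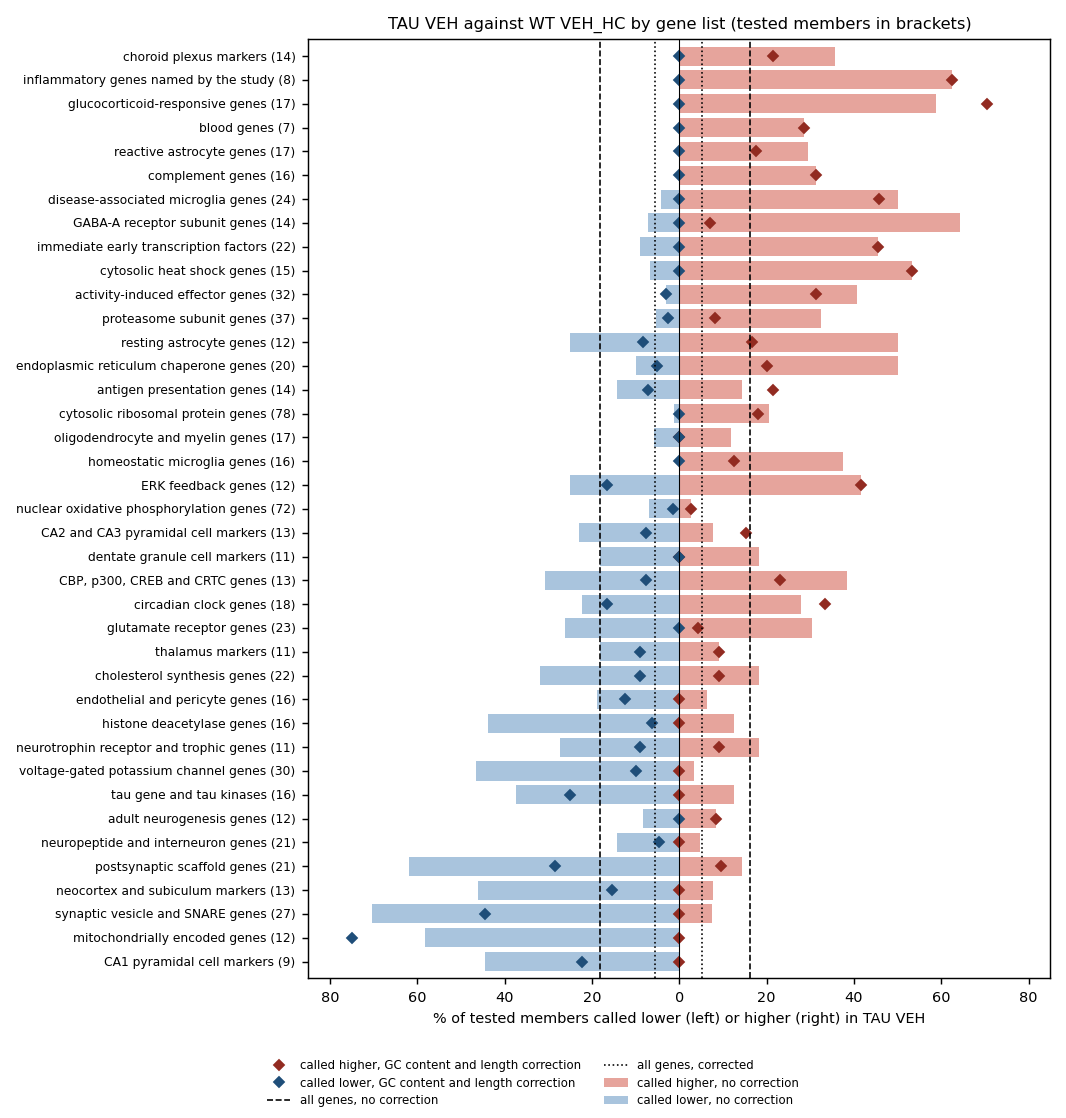
Share of the tested members of each of 39 gene lists (number in brackets) called higher (right) or lower (left) in TAU VEH against WT VEH_HC, as bars without and diamonds with the GC correction; the vertical lines give the same shares over all genes. The bars of the synaptic vesicle and postsynaptic lists reach far left, and those of the glucocorticoid, heat shock and inflammatory lists far right, with diamonds beyond the dotted line. The bar of the GABA-A receptor list reaches farthest right (64.3%), with its diamond at 7.14%. The diamond of the mitochondrially encoded list lies farthest left (75%).

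Among the 12 largest decreases, Dlk1, a Notch-like ligand gene, was at 13.1, 6.22 and 6.57 CPM in WT VEH_HC and at 2.86 and 2.26 CPM in TAU VEH (log2 fold change -1.72 ± 0.37, edgeR adjusted p = 0.00414). Nhlh1, a neuronal helix-loop-helix factor gene, was at 3.23, 5.34 and 4.94 CPM against 1.42 and 1.36 CPM (log2 fold change -1.69 ± 0.27, edgeR adjusted p = 0.000793). Neither gene's groups overlapped, and WT VEH lay between them, at 5.29 and 4.79 CPM for Dlk1 and at 2.61 and 2.09 CPM for Nhlh1. Lrrc17 (-1.30), Ngb, which encodes neuroglobin (-1.23), Ntn5 (-1.23), the Notch target gene Heyl (-1.21), Otof (-1.14), 9330133O14Rik (-1.40) and the mitochondrial transfer RNA gene mt-Ta (-1.28) also kept their calls with the GC correction, while Baiap3 (-1.54) did not. Lrrc17, Ntn5 and Baiap3 overlap Fbxl13, Sec1 and 0610007P22Rik, whose reads cannot be told apart. Baiap3 was high in WT VEH_HC replicate 1 (26.2 CPM) against 7.01 and 7.31 CPM in the other home-cage libraries. The unnamed model Gm10801 was at 0.0254, 9.83 and 8.06 CPM in WT VEH_HC and had no count in either TAU VEH library or in WT VEH. WT VEH_HC replicate 1 lay near 0 as well, so the difference rested on the other 2 home-cage libraries, and the call was lost without TAU VEH replicate 1 (edgeR adjusted p = 0.124).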

How the data were processed

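RNA of the dorsal hippocampus was sequenced as poly-A libraries from an unstranded kit, so reads of overlapping genes cannot be told apart. The authors made the deposited raw counts per gene with CASAVA 1.8.2, TopHat2 2.0.10, Bowtie2 2.1.0 and HTSeq 0.5.4p3 on mm9, and the deposited normalized signal holds those counts divided by 1 factor per library; the authors tested with DESeq2. The authors left out some samples of the learning cohort for their variability, which are not analysed here. The signal was checked and not tested. Columns of the authors' own comparisons (fold changes and p-values) were not used.

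The counts of the 9 learning libraries were fitted together with edgeR 4.0.16 in R 4.3.3 (TMM scaling, filterByExpr, quasi-likelihood test, Benjamini-Hochberg adjustment over 16820 genes). The basal table was fitted alone. The thresholds are those of the study (adjusted p of 0.05, absolute log2 fold change of 0.2). CPM values are TMM-scaled. Replicates of a group differed by more than the sampling noise (chi-square of 9.23 to 26.5 per gene), so each was counted. At these depths the biological coefficient of variation was 0.084. On simulated data for TAU VEH against WT VEH_HC the edgeR fit of 16604 genes found 69% of genes changed by 0.5 on the log2 scale, with 12 false calls. That of 16619 genes found 96% of those changed by 1, with 6. The simulated counts held no shift with GC content, and genes with few counts were not among those changed. These figures therefore do not give the share of false calls in the real data.

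The GC correction entered a loess fit (span 0.3) of each library's log2 counts on GC content and exon length as offsets. The choroid plexus score is the mean log2 CPM of 14 markers. Other alternatives were DESeq2 1.42.0, DESeq2 size factors, library size alone, other filters, the compared groups alone, a replicate block and leaving out each library. The block takes the last WT VEH_HC and the last WT basal library out of their contrasts, since no other group has that replicate number.

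Named genes were those the study names, Thy1 and Mapt, the 12 largest called changes each way among genes averaging 100 or more normalized counts whose groups did not overlap, up to 3 called members each way of each of 39 lists, the activity lists, and up to 6 genes each way called alike in the basal comparison; others are marked or were chosen after their values were seen. The comparison, its members and all lists were chosen with earlier results of these data known. No set test was run, and members of a list are not replicates. The trained THY-Tau22 group given the CBP/p300 activator was fitted with the other learning libraries. It thus entered the filter, the scaling, the GC correction, the GC correlations, the covariate fit and the shared estimate of spread. Apart from correlations of its libraries with those of WT VEH_HC, no result of that group is given. Some genes that the rule selects are not reported here.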

Additional observations from a re-analysis of the deposited data

Results flagged for a closer look

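In 22 of the 66 activity genes the distance from the home cage differed between TAU VEH and WT VEH, by the edgeR test of TAU VEH against WT VEH, in which both trained groups have the same reference. Of all genes 14.4% were called in that test, and 2.97% with the GC correction. Given as log2 fold changes (TAU VEH minus WT VEH), 21 were lower in TAU VEH, and under scaling by library size alone 11 of the 66 were lower and 8 higher. Among transcription factor genes these were Egr1 (-0.84), Nr4a1 (-0.77), Egr4 (-0.62), Nr4a2 (-0.62), Egr2 (-0.60), Srf (-0.54), Junb (-0.52), Fosb (-0.46), Jund (-0.43) and Csrnp1 (-0.39). Among effector genes they were Per1 (-0.69), Arc (-0.68), Sik1 (-0.61), Arl4d (-0.50), Gpr3 (-0.43), Vgf (-0.36) and Trib1 (-0.35). Among ERK feedback genes they were Dusp5 (-0.42), Dusp6 (-0.35), Spred3 (-0.32) and Spred2 (-0.22). Ptgs2, the inducible cyclooxygenase gene, was the 1 that was higher (0.50), and it was called higher than WT VEH_HC in TAU VEH (0.48) and not in WT VEH (-0.01). With the GC correction 4 of the 22 were called, and with the choroid plexus score as a covariate, which did not overlap between the trained groups, 0 were. With that covariate the median log2 fold change over the 66 was -0.18, with 39 negative and 27 positive. Without it the median was -0.16, with 47 negative and 19 positive. Genotype and injected vehicle change together between these groups and cannot be told apart.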

How the results depend on the processing

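With the GC correction 1794 genes were called between TAU VEH and WT VEH_HC (870 higher, 924 lower), and with the replicate block added 1794 (1052 and 742). The replicate block alone gave 6120, and DESeq2 gave 5405. No other learning group has a library numbered as WT VEH_HC replicate 3, so the block takes that library out of the contrast. Leaving the same library out gave 5985 calls, so these 2 alternatives are not separate checks. With the choroid plexus score as a covariate 2447 were called (793 and 1654). Scaling by library size alone called 6518 (4988 and 1530), 76.5% of them higher against 47.1% under TMM, and moved the median over all genes from -0.01 to 0.15 on the log2 scale, so directions of small changes are relative to the scaling. Leaving out 1 library gave 3273 to 5985 calls (1401 to 2920 higher, 1872 to 3065 lower), the fewest without TAU VEH replicate 1 and 3766 without TAU VEH replicate 2. TAU VEH against WT VEH gave 499 with the GC correction, 3598 (2578 higher and 1020 lower, from 608 and 1815) under scaling by library size alone, 796 with the replicate block and the GC correction, 0 with a choroid plexus covariate and 915 to 1276 without 1 library. WT VEH against WT VEH_HC gave 770 with the GC correction, 3000 with the replicate block, 2686 with no filter on low counts, 310 with only the groups compared, 0 with the choroid plexus score as a covariate (810 at an unadjusted p under 0.05; DESeq2 without it gave 1850) and 73 (without WT VEH replicate 1) to 2798 (without WT VEH_HC replicate 3) without 1 library, from 1413. The basal comparison gave 40 with DESeq2, 11 with the GC correction, 37 with the replicate block, 1 with both, 125 (73 higher and 52 lower) with no filter on low counts and 1 to 15 without 1 library, from 4; 0 of the 4 were kept without WT basal replicate 2 and 1 without WT basal replicate 3. The causes were not tested. The labels do not say that a replicate number marks a shared animal or batch, and outside the replicate block the numbers were not taken as pairs. In their deviations from the group means, same-numbered libraries of TAU VEH and WT VEH_HC correlated at -0.016 and -0.083, those of WT VEH and WT VEH_HC at 0.0016 and 0.086, those of TAU VEH and WT VEH at 0.172, and those of WT VEH_HC and the trained THY-Tau22 group given the activator at 0.331 and 0.291.

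Of 240 named genes 139 kept their direction and their side of the threshold with the GC correction, 225 with DESeq2, 222 with the replicate block, and 173 and 168 without TAU VEH replicate 1 and replicate 2. With the GC correction 12 turned, to log2 fold changes of -0.24 for Arf4, -0.082 for B2m, 0.12 for Cox6a1, 0.037 for Fgfr3, -0.058 for Hdac2, -0.058 for Kcnv1, 0.29 for Nptx2, 0.012 for Rgs14, -0.0079 for Rgs5, 0.034 for Rpl28, 0.041 for Srf and 0.10 for Vgf. With the block as well, B2m was at -0.061, Cox6a1 at 0.13, Fgfr3 at 0.022, Hdac2 at -0.019, Kcnv1 at -0.031, Nptx2 at 0.36, Rgs14 at 0.079, Rpl28 at 0.079, Srf at 0.050 and Vgf at 0.13. Steap4 was at 3.24 without TAU VEH replicate 1 and at -0.58 without TAU VEH replicate 2. Over all genes, 308 higher and 321 lower calls held in all 15 alternatives. With 2 TAU VEH libraries, of which 1 had 24693713 counts, 69% of genes changed by 0.5 on the log2 scale were found in the simulated data. Those data held no shift with GC content.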

Other observations

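Levels of Fos, Arc and Nr4a1, chosen after their values were seen, are given here in both cohorts. Fos was at 19.6, 23.4 and 17.0 CPM in WT basal and at 7.32 and 9.90 CPM in TAU basal, beside 3.97 to 5.30 CPM in WT VEH_HC and 14.4 and 16.0 CPM in TAU VEH. Arc was at 293, 233 and 189 CPM in WT basal and at 80.8 and 61.7 CPM in TAU basal, beside 143 to 146 CPM in WT VEH_HC and 236 and 263 CPM in TAU VEH. Nr4a1 was at 84.1, 86.7 and 87.9 CPM in WT basal and at 39.5 and 38.2 CPM in TAU basal, beside 53.7 to 62.1 CPM in WT VEH_HC. The tables were scaled separately and come from separate cohorts, so levels across them carry no test.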
